A study of Homo sapiens with 3 samples.

Results

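MCF10A cells are human mammary epithelial cells that grow without limit in culture and do not form tumours. The expression of 10 genes of the BCL2 family was read in these cells from RNA-seq of 3 replicates of a single condition. The genes were listed by name and found by the symbols that GENCODE release 44 gives to the Ensembl identifiers. They are 10 of the 62754 genes in the deposited table. By the labels, the cells carried an empty vector of the Retro-X Tet-One inducible system without a gene of interest, had been selected with puromycin, and received neither doxycycline nor other treatment. By the study's methods they grew in DMEM/F12 with mammary epithelial supplements and cholera toxin, and RNA was taken in the exponential growth phase. All replicates share this background and, by the labels, batch 1, so that no condition can be compared with another, and nothing says whether they came from separate cultures.

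The BCL2 family decides at the outer mitochondrial membrane whether a cell enters apoptosis. Survival members (BCL2, BCL2L1, BCL2L2 and MCL1) hold the pore-forming effectors BAK1 and BAX in check. BH3-only members (BID, BAD, BIK, BCL2L11 and PMAIP1) respond to stress, bind into a groove of the survival members through the BH3 segment, and so free or directly activate the effectors. In breast epithelium, loss of attachment and loss of growth factor signals are known to act through BH3-only proteins such as that of BCL2L11.

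The BH3 segment is what the 10 genes have in common. The stretches below code for it and are shown because all 10 genes have this segment. Each was read 5′ to 3′ on the coding strand from the canonical transcript in GENCODE release 44 on hg38. Each holds the 6 codons of the BH3 core with 4 codons before and 3 after it, 39 bases in all. Capitals mark the first codon of the core, for leucine in 9 of the 10 genes, and its last pair of codons, for glycine in 9 genes and aspartate in all 10.
BCL2: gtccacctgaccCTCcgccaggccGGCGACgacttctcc
BCL2L1: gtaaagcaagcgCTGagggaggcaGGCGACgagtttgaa
BCL2L2: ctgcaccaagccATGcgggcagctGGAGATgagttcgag
MCL1: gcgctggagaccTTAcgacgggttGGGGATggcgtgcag
BAK1: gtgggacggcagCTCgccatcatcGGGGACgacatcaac
BID: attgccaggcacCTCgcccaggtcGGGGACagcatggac
BAD: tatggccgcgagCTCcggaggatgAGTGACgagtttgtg
BIK: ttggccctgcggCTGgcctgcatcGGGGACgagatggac
BCL2L11: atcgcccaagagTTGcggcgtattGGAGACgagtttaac
PMAIP1: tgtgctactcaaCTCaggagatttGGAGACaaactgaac
The exceptions are BCL2L2, whose first core codon is ATG for methionine, and BAD, which has AGT for serine in place of the glycine codon. Between pairs of genes, the identity of the 39 bases had a median of 46.2% over 45 pairs. It was highest for BAK1 and BIK at 71.8%. It was lowest, at 30.8%, for 4 pairs, MCL1 with BAD, MCL1 with PMAIP1, BCL2 with PMAIP1 and BCL2L2 with BID. Each stretch lies within 1 exon. For MCL1 it is in exon 1 of 3, on the minus strand at chr1:150578868-150578906. For BCL2L2 it is in exon 3 of 4, on the plus strand at chr14:23307891-23307929. For PMAIP1 it is in the last of 2 exons, on the plus strand at chr18:59902661-59902699, in a coding sequence of 54 codons, the shortest of the 10. The longest was that of MCL1 with 350 codons.

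The deposited values are TPM, that is, reads per transcript length, set to add up to 1000000 in each replicate. Whole reads could be recovered from them with the lengths in the annotation, 15273329, 15446347 and 11166546 in replicates 1, 2 and 3, of which 51932 were on the 10 genes. Basal markers were high in every replicate, with KRT5 at a mean of 6612 TPM, and 5 of 5 basal and 4 of 4 epithelial markers (highest KRT18, at 412.6 TPM) were at or above 1 TPM. Of the hormone-responsive luminal markers 2 of 5 were (highest GATA3, at 12.8 TPM, with ESR1 and PGR at 0.0345 and 0.00485 TPM), of the fibroblast markers 2 of 5 (DCN, at 9.05 TPM), of the endothelial 1 of 4 (PECAM1, at 1.77 TPM) and of the leukocyte 1 of 5 (CD14, at 1.96 TPM). Replicate 3 stood apart. The non-coding RNA RN7SL1 held 15.1% of its TPM, against 4.93% and 5.66% in replicates 1 and 2, and the median log2 ratio of its TPM over genes of at least 10 TPM was -0.25 against replicate 1 and -0.24 against replicate 2.

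All 10 BCL2 family genes were expressed at or above 1 TPM, the cutoff the study used for its models, in every replicate. The share of all 20046 protein-coding genes at or above 1 TPM was 56.7% by the mean, 56.6%, 57.2% and 56.1% in replicates 1, 2 and 3, and 55.2% in every replicate. Over all 62754 genes it was 24.9% by the mean. MCL1 was far above the rest, followed by BCL2L1, BAD and BAK1, and BCL2, the gene that gave the family its name, was the lowest. In order of mean TPM the genes were MCL1, BCL2L1, BAD, BAK1, BID, BCL2L2, BCL2L11, PMAIP1, BIK and BCL2, and this order was the same in each of the 3 replicates. Among the 11360 protein-coding genes of at least 1 TPM by the mean, whose median was 24.9 TPM, 5 of the 10 lay above the median and 5 below it. MCL1 was at percentile 98.4, BCL2L1 at 78.5 and BCL2 at 14.5 of these genes.

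**Figure D1:**
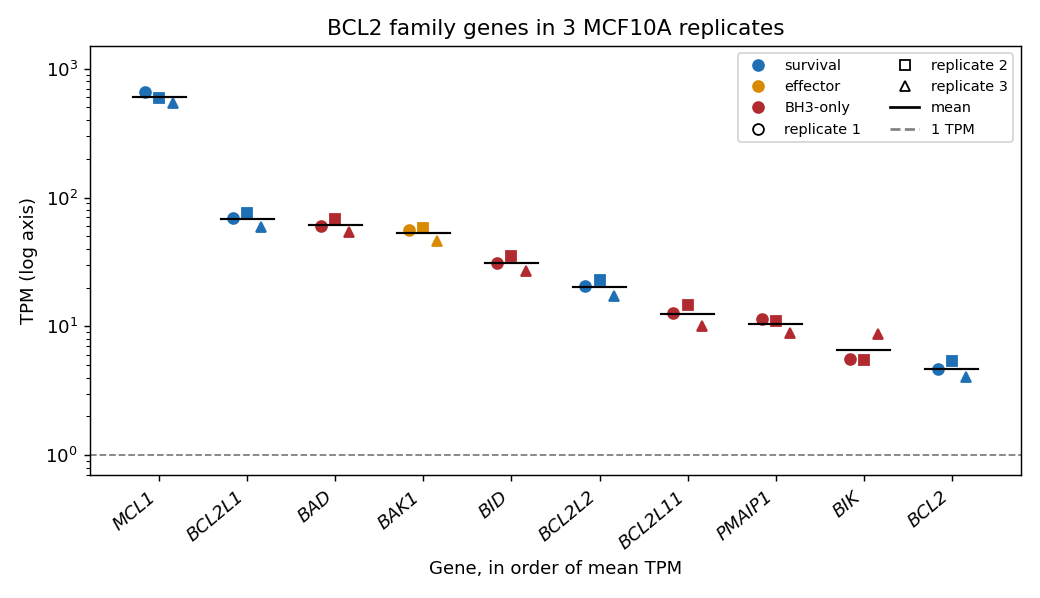
TPM of the 10 BCL2 family genes on a log axis, 1 point per replicate (circles, squares and triangles for replicates 1, 2 and 3), with the mean as a bar and colours for the role of the gene. All points lie above the dashed line at 1 TPM, MCL1 is higher than the next gene in every replicate, and BIK is the gene with the triangle above the other points.

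Among the survival genes, MCL1 (ENSG00000143384, chromosome 1 of hg38 from 150560895 to 150579738, minus strand) was measured at 664, 588 and 542 TPM in replicates 1, 2 and 3, a mean of 598 ± 61.6 TPM (SD, n = 3). It encodes a survival protein of rapid turnover. Its 41464 reads gave it the highest count of the family, 79.9% ± 1.89 (SD, n = 3) of the reads on the 10 genes, and replicate 1 was the highest and replicate 3 the lowest. BCL2L1 (ENSG00000171552, chromosome 20 from 31664452 to 31723989, minus strand), the gene of BCL-XL, was measured at 69.1, 76.2 and 59.0 TPM, a mean of 68.1 ± 8.61 TPM (SD, n = 3). MCL1 exceeded it 9.61-, 7.73- and 9.18-fold within the replicates. BCL2L1 also encodes a short isoform that promotes death, and MCL1 and BCL2L11 have isoforms too, which values per gene do not tell apart.

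BCL2L2 (ENSG00000129473, chromosome 14 from 23298790 to 23311751, plus strand), the gene of BCL-W, was measured at 20.5, 22.8 and 17.3 TPM, a mean of 20.2 ± 2.80 TPM (SD, n = 3). BCL2 (ENSG00000171791, chromosome 18 from 63123346 to 63320128, minus strand) was measured at 4.63, 5.37 and 4.07 TPM, a mean of 4.69 ± 0.654 TPM (SD, n = 3). It spans the longest stretch of the genome of the 10 and has the longest transcript used for scaling, 7459 bases, so that this level rests on 182, 217 and 136 reads. MCL1 was 129 ± 17.4 times as high as BCL2 per length (SD, n = 3).

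Summed over the 4 survival genes, TPM was 758, 693 and 622 in replicates 1, 2 and 3. MCL1 made up 87.6%, 84.9% and 87.1% of this sum, a mean of 86.5% ± 1.40 (SD, n = 3). BCL2L1 added 9.86% ± 0.995, BCL2L2 2.93% ± 0.322 and BCL2 0.680% ± 0.0855 (SD, n = 3 each). The survival sum is thus mostly 1 gene in each replicate. The remaining survival genes of the family, BCL2A1 and BCL2L10, had means of 0.247 and 0.169 TPM, from 3 reads each over the replicates, and with them the share of MCL1 was 86.5%.

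The effector BAK1 (ENSG00000030110, chromosome 6 from 33572547 to 33580293, minus strand), which forms pores in the outer mitochondrial membrane, was measured at 55.6, 58.4 and 46.1 TPM, a mean of 53.4 ± 6.45 TPM (SD, n = 3). The effector BAX, not among the 10, was measured at 78.7, 77.9 and 66.3 TPM, a mean of 74.3 ± 6.96 TPM (SD, n = 3). BAK1 was at 0.718 ± 0.0287 (SD, n = 3) of the level of BAX and lower in every replicate. A further BAX-like gene, BOK, had a mean of 23.8 ± 3.33 TPM (SD, n = 3).

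Of the BH3-only genes, BAD (ENSG00000002330, chromosome 11 from 64269830 to 64284704, minus strand) was the highest, with 60.5, 68.3 and 53.7 TPM and a mean of 60.8 ± 7.30 TPM (SD, n = 3). Its protein is held inactive by phosphorylation when growth factors are present. BID (ENSG00000015475, chromosome 22 from 17734138 to 17774770, minus strand) was measured at 31.2, 35.0 and 26.7 TPM, a mean of 31.0 ± 4.16 TPM (SD, n = 3). Its protein is cut by the caspase of death receptors and links these receptors to the mitochondria. BAD and BID, whose proteins are switched on after translation, together made up 75.5% ± 1.24 (SD, n = 3) of the TPM of the 5 BH3-only genes.

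The other 3 were all lower. They are known to be controlled in part through their transcription, and whether this bears on their level was not tested. BCL2L11 (ENSG00000153094, chromosome 2 from 111119378 to 111168444, plus strand), the gene of BIM, was measured at 12.7, 14.7 and 10.1 TPM, a mean of 12.5 ± 2.28 TPM (SD, n = 3). PMAIP1 (ENSG00000141682, chromosome 18 from 59899996 to 59904305, plus strand), the gene of NOXA, whose protein binds mainly that of MCL1, was measured at 11.5, 11.1 and 8.93 TPM, a mean of 10.5 ± 1.38 TPM (SD, n = 3). BIK (ENSG00000100290, chromosome 22 from 43110750 to 43129712, plus strand) was measured at 5.62, 5.46 and 8.72 TPM, a mean of 6.60 ± 1.84 TPM (SD, n = 3). BIK was thus highest in replicate 3, where the other 9 genes were lowest. It had the fewest reads of the 10 genes, 28, 28 and 37, and the exact 95% Poisson intervals of its level, which cover counting error only, ran from 3.73 to 8.12, from 3.63 to 7.90 and from 6.14 to 12.0 TPM and overlap.

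Summed over the 5 BH3-only genes, TPM was 122, 135 and 108 in replicates 1, 2 and 3. The survival sum exceeded it 5.71-fold ± 0.547 (SD, n = 3). Without MCL1, the survival sum was 93.0 ± 12.1 TPM and at 0.765 ± 0.0192 (SD, n = 3) of the BH3-only sum, below it in every replicate. These are ratios of RNA, not of protein. BBC3, BMF and HRK, BH3-only genes outside the 10, had means of 4.27, 0.0695 and 0.0106 TPM. They added 3.44% ± 0.907 (SD, n = 3) of the BH3-only TPM of 8 genes. The relatives BNIP3 and BNIP3L, at means of 30.9 and 11.9 TPM, were not counted as BH3-only genes here. BBC3 (PUMA), a target of p53, was at 5.56, 4.21 and 3.03 TPM from 54, 42 and 25 reads.

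**Figure D2:**
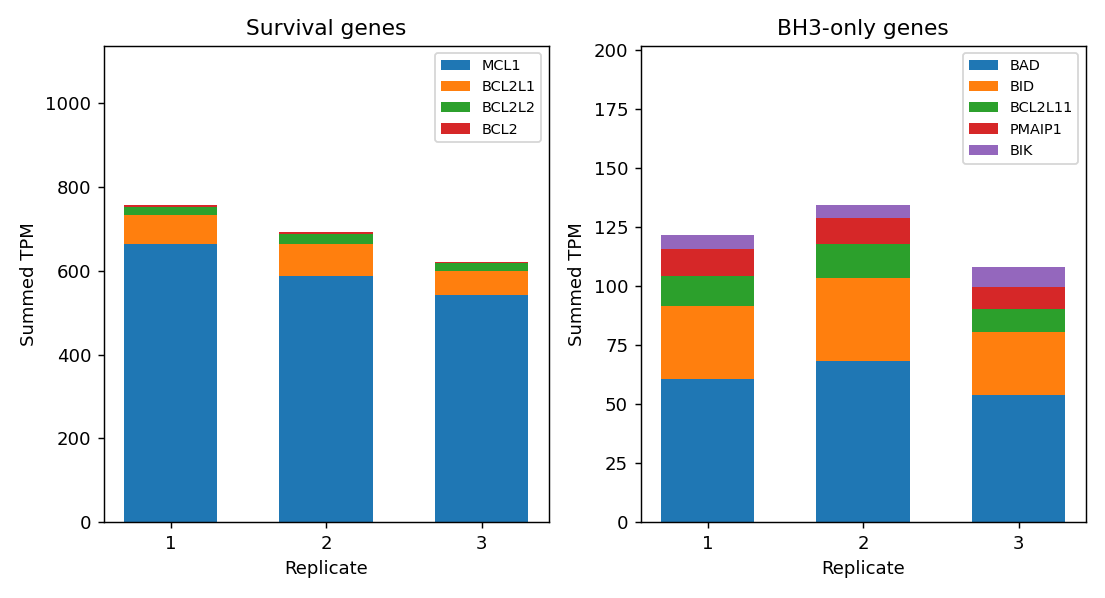
Summed TPM of the 4 survival genes (left) and the 5 BH3-only genes (right) in each replicate, with a coloured segment per gene and separate axes that both start at 0. MCL1 fills most of each left bar, between 84.9% and 87.6%, and BAD and BID fill most of each right bar.

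The steps between neighbours in the order of levels were compared within each replicate as differences of log2(TPM + 1). The order was taken from the means of these same replicates, so that the direction of the mean step was largely set in advance. A step was taken as beyond the spread where it had the same sign in every replicate and a mean above its SD. This held for 8 of 9 steps. The largest was that from MCL1 to BCL2L1, 3.12 ± 0.16 on the log2 scale (SD, n = 3). The steps from BCL2L1 to BAD (0.16 ± 0.03) and from BAD to BAK1 (0.19 ± 0.06, SD, n = 3 each) were small, yet in the same direction in each replicate. The step from BIK to BCL2 was 0.40 ± 0.48 (SD, n = 3) and did not exceed the spread. The step from PMAIP1 to BIK, 0.62 ± 0.51 (SD, n = 3), was just 0.03 in replicate 3 and did not exceed the spread without replicate 1 (0.47 ± 0.62) or without replicate 2 (0.47 ± 0.63, SD of 2 replicates each). Without replicate 2, the step from BIK to BCL2 did exceed it. With 3 replicates, the exact two-sided sign-flip permutation test cannot give a p below 0.25.

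The replicates differed by less than 1.5-fold for 9 of the 10 genes. The SD of log2(TPM + 1) between replicates had a median of 0.18 over the 10 genes. It was 0.16 over the protein-coding genes whose mean was 1 TPM or more, and 0.19 over all genes of that level. The highest ratio of 2 replicates was 1.60 for BIK and the lowest 1.23 for MCL1. In replicate 3, 9 genes were lowest, as were 78.5% of the protein-coding genes of at least 1 TPM, and 7 were highest in replicate 2, as were 46.3%. MCL1 and PMAIP1 were highest in replicate 1. BIK was highest in replicate 3, as were 5.90% of these protein-coding genes.

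**Figure D3:**
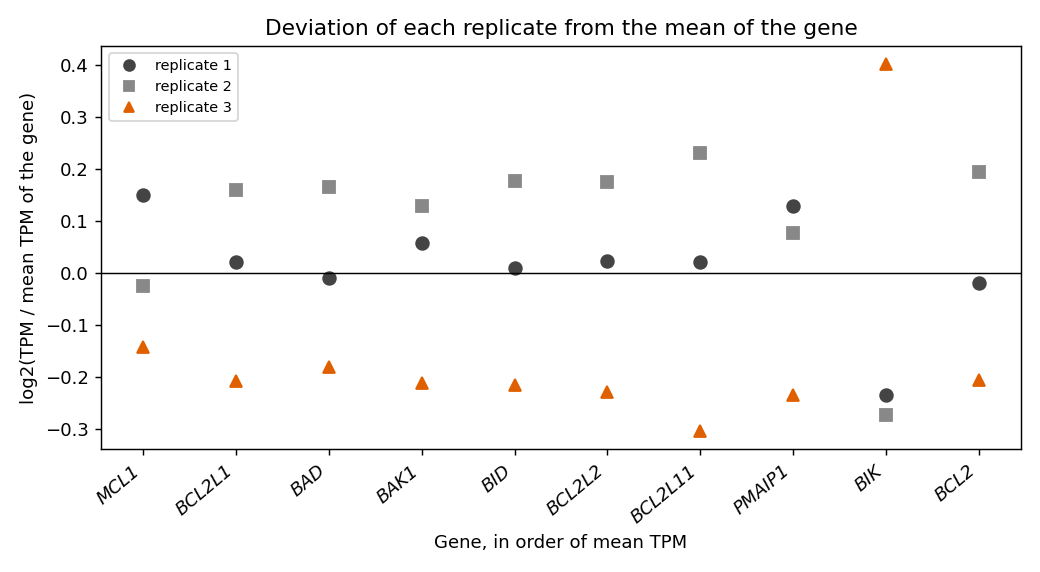
Deviation of each replicate from the mean TPM of the gene, as log2 ratio, for the 10 genes in order of mean TPM. Replicate 3 (orange triangles) is below 0 for 9 genes and at 0.40 for BIK.

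To see whether these differences exceed counting error, the recovered reads of each gene were tested against equal TPM in the replicates by chi-square, with p adjusted after Benjamini-Hochberg over 15802 genes with at least 15 reads. It called 7 of the 10 genes, beside 54.3% of all genes tested and 61.3% of the 12359 protein-coding ones, a share near the background. Called by chi-square were MCL1 (adjusted p = 3.13e-60), BCL2L1 (2.26e-07), BCL2L11 (0.000119), BAK1 (0.000874), BID (0.0031), BCL2L2 (0.00332) and BAD (0.0153). BCL2, BIK and PMAIP1 had chi-square adjusted p of 0.0625, 0.148 and 0.270. Once TPM was scaled to the median ratio of genes of at least 10 TPM, 31.2% of the tested genes (33.8% of the protein-coding ones) were called by chi-square and 3 of the 10, namely MCL1 (adjusted p = 6.12e-20), BCL2L1 (0.0486) and BIK (0.0398). With equal TPM, the number was 4 without replicate 2 and 8 without replicate 1 (46.7% of the genes tested in both), and 1, MCL1, without replicate 3 (21.3%). On the scaled values MCL1 was at 624, 559 and 605 TPM in replicates 1, 2 and 3, and thus lowest in replicate 2. BIK was at 5.28, 5.19 and 9.74 TPM on the scaled values. The chi-square adjusted p of BIK lay between 0.0398 and 0.961 over all alternatives. The test compares these libraries, not conditions. The share of RN7SL1 was highest in replicate 3, and its part in the result was not tested.

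How the annotation overlaps bears on what was counted. Of the 10 genes, BCL2L2 was the only one whose canonical transcript shares bases with a gene on the same strand. The gene is the readthrough gene BCL2L2-PABPN1 (ENSG00000258643), which joins the start of BCL2L2 to the next gene and shares 590 of the 3526 bases (16.7%). The BH3 stretch printed above lies within the shared part with all of its 39 bases. BCL2L2-PABPN1 was measured at 0.711, 1.38 and 0.104 TPM from 8, 16 and 1 reads. An alternative chosen after the data were seen took reads per unshared base of the canonical transcript, without rescaling to a fixed total. BCL2L2 was then at 24.5 TPM in place of 20.2. The same reads were set over fewer bases, so that this rise was fixed by construction. BCL2L1, without shared bases on its strand, rose as well, from 68.1 to 86.1 TPM, by its shorter canonical transcript. Of the 10 levels, 5 moved by more than 1 SD and 5 did not. BCL2L2 kept its place in the order.

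On the opposite strand, 4 of the 10 canonical transcripts were overlapped by another gene. The overlap was 36.7% for BCL2L1 (with ABALON, at a mean of 0.504 TPM), 33.8% for BAD (with GPR137, at 25.9 TPM), 14.3% for BCL2L11 (with MIR4435-2HG, at 7.89 TPM) and 4.19% for BAK1 (with GGNBP1, listed at 0). The BH3 stretches of BCL2L1 and BAK1 lie within the overlapped part with all of their 39 bases. These partners follow from the annotation. Whether strand was used in counting is not given in the sources used here, so that for BAD and BCL2L11 part of the reads could belong to the other strand. For BCL2L1 and BAK1 the low values of the partners do not settle this, since they come from the same counting. The other 5 genes, MCL1, BID, BIK, PMAIP1 and BCL2, had canonical transcripts that overlapped no exon on either strand.

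The length used for TPM was that of the longest transcript of each gene. For MCL1 this is a transcript with a retained intron, of 4548 bases, against 3950 for the canonical one. For BCL2L1 it is a transcript subject to nonsense-mediated decay, 1.27 times as long as the canonical one, the highest ratio of the 10. With the lengths of canonical transcripts for all genes, MCL1 was at 561 and BCL2L1 at 70.2 TPM. By more than 1 SD moved BAK1, to 44.3 TPM, BCL2L2, to 16.7 TPM, and PMAIP1, to 8.56 TPM, and the order of the 10 genes was the same. In genome position, BCL2 and PMAIP1 are both on chromosome 18, and BID and BIK both on chromosome 22, and each of the other 6 is alone on its chromosome.

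RefSeq promoters (GRCh38.p14, 250 bases before to 50 after each start) were matched for 7 of the 10 genes, all but MCL1, BCL2L2 and BIK. In 6 of the 7 at least 1 start had a GC content of at least 50% and an observed over expected ratio of the dinucleotide CG of at least 0.6, as had 69.3% of the 15345 protein-coding genes in the same table. The exception was BAK1, with a ratio of 0.282. The highest GC content was that of BID, at 78.0%, and the highest ratio that of PMAIP1, at 1.11.

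The apoptosis machinery around the family was read for 63 genes in 7 lists. By the mean, 51 of them were at or above 1 TPM, beside the share of 56.7% of all protein-coding genes, and 12 below it. All 9 genes of mitochondrial release and the apoptosome were at or above it. The highest were VDAC1 and VDAC3, channels of the outer membrane, at 1015 ± 98.4 and 339 ± 24.2 TPM (SD, n = 3 each). DIABLO was measured at 1.35, 3.16 and 2.45 TPM, and 100% of the bases of its canonical transcript also belong to other genes of that strand. All 9 transcription factors known to act on BH3-only genes were at or above 1 TPM as well, the highest being ATF4 and MYC at 491 ± 55.4 and 406 ± 72.6 TPM (SD, n = 3 each).

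Among the caspases, 6 of 7 were at or above 1 TPM. CASP8, which starts the death receptor cascade and cuts the BID protein, was the highest at 41.6 ± 0.290 TPM (SD, n = 3). CASP10 was at 0.872, 1.21 and 0.788 TPM and below 1 TPM by the mean. Of the inhibitors of apoptosis proteins, 5 of 7 were at or above it, with BIRC5 (survivin) and BIRC6 the highest at 163 ± 16.7 and 52.6 ± 6.74 TPM (SD, n = 3 each). BIRC7 and NAIP had 0 reads. A limit of 3 reads over the group allows 0.149 TPM for BIRC7 and 0.0279 TPM for NAIP, which has closely related copies in the genome that could take its reads.

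In the death receptor pathway 10 of 12 genes reached 1 TPM by the mean. The highest were the receptors TNFRSF10B and TNFRSF1A, at 139 ± 13.3 and 92.4 ± 16.3 TPM (SD, n = 3 each). The ligand FASLG and a decoy receptor, TNFRSF10C, were below it, at 0.111 and 0.232 TPM. Of the canonical transcript of TNFRSF10C, 36.6% of the bases also belong to other genes of that strand. Another decoy receptor, TNFRSF10D, was at 60.4 TPM. Of the genes for turnover of the MCL1 protein, 5 of 6 were at or above it. The ubiquitin ligase HUWE1 had 129 ± 17.4 TPM and the deubiquitinase USP9X 57.1 ± 5.70 TPM (SD, n = 3 each), while TRIM17 was at 0.0233 TPM from 1 read.

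Of the other 13 genes of the BCL2 family and its relatives, 7 were at or above 1 TPM, with BAX and BCL2L13 (48.6 ± 7.04 TPM, SD, n = 3) the highest. The 6 below it were BMF, HRK, BCL2A1, BCL2L10, BCL2L14 and BCL2L15, with means between 0.0106 TPM for HRK and 0.247 TPM for BCL2A1. BCL2L15 had 18 reads over the replicates, and each of the other 5 had at most 5.

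**Figure D4:**
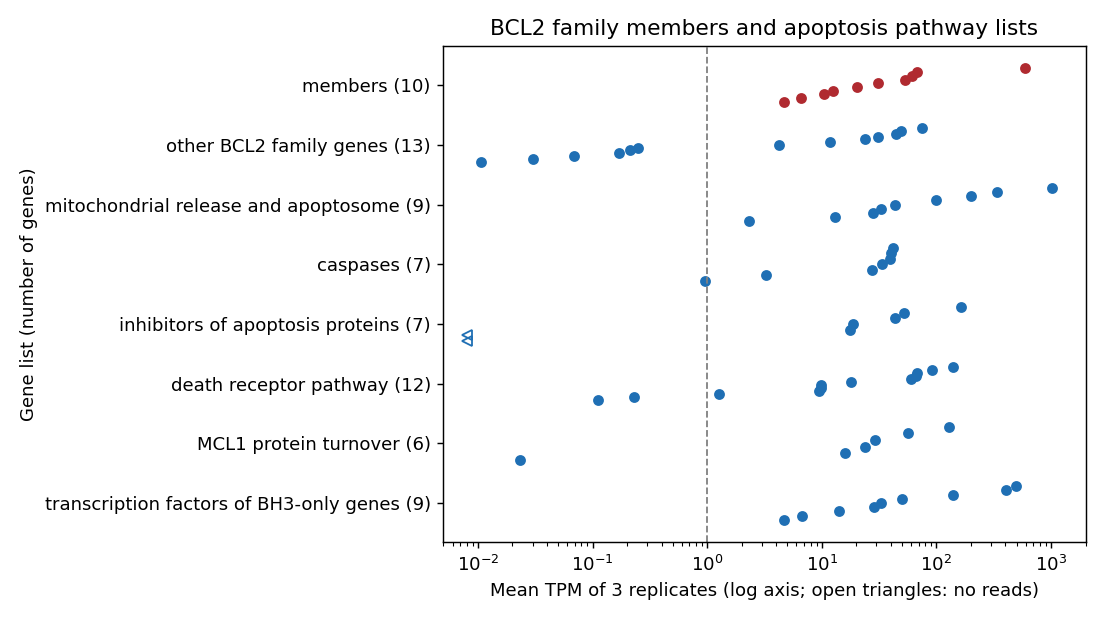
Mean TPM of 3 replicates on a log axis for the 10 BCL2 family genes (top row, red) and the genes of 7 apoptosis lists (blue), 1 point per gene, with genes without reads as open triangles at the left edge. All 10 are right of the dashed line at 1 TPM, as are all 9 genes of mitochondrial release and of the transcription factors, while 6 of 13 other family genes are left of it.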

How the data were processed

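The RNA of MCF10A cells without treatment was sequenced in 3 replicates, and libraries were prepared from 300 ng of RNA depleted of ribosomal RNA. By the methods and the submitters' processing notes, the authors mapped and counted the reads with the workflow Seq2science, with fastp, STAR and MultiQC, on hg38 (GRCh38.p14). The counting program within it, annotation release, filters and use of strand are not given in the sources used here. The authors deposited 1 table of TPM for 62754 genes, unpooled, and columns were matched by library name.

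Genes were matched to GENCODE release 44 (62700 found). TPM times the length of the longest transcript, with 1 base less per exon, was divided by its smallest value above 0. It gave whole numbers within 0.01 for 100% of values, taken as reads, so that totals rest on the smallest step being 1 read.

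Levels are means ± SD of TPM. With 1 condition, no test between groups was made. The code of the chi-square test was run on simulated reads that held counting error and set changes only. This check does not bear on the further spread between these libraries. The text names the 10 members, genes sharing exons with them on the same strand, and the 2 highest genes and all below 1 TPM of each list. Partners on the opposite strand, BBC3, BNIP3, BNIP3L, BOK, DIABLO, RN7SL1, TNFRSF10D and single marker genes beyond the highest of each list were added to this rule. A gene that this rule names is not reported here. Members and lists were chosen with earlier results of these data known. Alternatives covered cutoff, summary, pseudocount, scaling, transcript length, read minimum and leaving out each replicate. Python 3.11.15, numpy 2.4.6, pandas 2.3.3, scipy 1.17.1, Biopython 1.88 and matplotlib 3.10.9 were used.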

Additional observations from a re-analysis of the deposited data

How the results depend on the processing

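No paired analysis was possible because the design has a single condition. The 10 genes were at or above the cutoff, and in the same order of mean level, under each alternative tried for these results. The listed genes at or above it were 51, and from 50 to 52 under the alternatives. The share of MCL1 in the survival sum was 89.2% by reads in place of TPM, which favours long transcripts by construction, and from 85.6% upwards under the others, with the range from 86.0% to 87.3% when 1 replicate was left out. The median spread of 0.18 was 0.093 with TPM scaled to the median ratio and from 0.11 (without replicate 3) to 0.25 (without replicate 1) when 1 replicate was left out. The number of the 10 genes that differed between replicates was 7, but 3 after that scaling and from 1 (without replicate 3) to 8 (without replicate 1) when 1 replicate was left out; the cause was not tested. With TPM scaled to protein-coding genes, 8 of the 10 levels moved upward by more than 1 SD, a direction fixed by construction. With canonical transcript lengths 3 moved downward, BAK1, BCL2L2 and PMAIP1. The own lengths of these 3 hardly changed, and the rescaled total brought them down. For levels, a mean of 3 values stays within 1 SD whichever replicate is left out, which says nothing about stability. Depth limits BIK most, with 93 reads in all.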
